A study of Mus musculus with 12 samples.

Results

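The subject is the machinery that burns fatty acids in the liver and turns part of the product into ketone bodies. Its 34 genes were chosen by name from the gene names of the array: 7 that activate fatty acids or carry them into the mitochondrion, 10 enzymes of the mitochondrial beta-oxidation spiral, 3 that pass on its electrons, 9 genes of the peroxisome, 1 ketone body enzyme (Bdh1), 1 acyl-CoA dehydrogenase that has been placed in more than one organelle (Acad11) and 3 regulators. All 34 of the 31870 gene names on the array were found, with 44 probes between them, and all were among the 19531 genes tested. A gene was read from its brightest probe.

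Liver RNA of 12 mice was hybridised to 12 single-colour Agilent arrays, 3 mice in each of 4 groups. Wild-type (WT) mice were FSAP+/+ littermates of mice lacking FSAP (FSAP-/-), the Factor VII activating protease, a circulating protease made by the liver from the Habp2 gene. Each genotype had a sham-operated group, which was operated on without ligation, and a group whose bile duct was tied off (bile duct ligation, BDL), which dams bile back into the liver and leads to duct growth and scarring. The title of the series names an antifibrotic effect of FSAP as the question. Every animal came from crosses of heterozygous mice on a BalbC background that had been backcrossed to the F3 generation, so other parts of the genome may still differ between littermates, was 20 to 30 weeks old, and gave its liver 2 weeks after surgery. The 3 samples of a group were separate mice.

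Fatty acids are bound in the hepatocyte cytosol by Fabp1, coupled to coenzyme A by Acsl1 and passed across the mitochondrial membranes as carnitine esters, and the spiral of dehydrogenase, hydratase, second dehydrogenase and thiolase then shortens them to acetyl-CoA. Peroxisomes run a parallel spiral on very long and branched chains and on bile acid precursors, and hand shortened chains on. In the liver, acetyl-CoA that is not burned is turned into acetoacetate and reduced to beta-hydroxybutyrate by Bdh1, for use by other organs. Many of these genes are known targets of the nuclear receptor PPAR alpha, which binds DNA together with RXR.

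Signals are given as log2 of the processed spot signal minus the 75th percentile of its array, called the scaled log2 signal below. A value of 0 is thus the signal of a fairly bright probe, and levels of different genes are not comparable because probes differ in efficiency. Differences between groups are on the log2 scale, each given with its standard error (SE) from limma fitted over the 12 arrays together, and a gene was called at a Benjamini-Hochberg adjusted p under 0.05 over the 19531 genes. Of the probes on an array, between 54.5% and 62.3% of spots were well above background, and 33 of the 34 members were so on all 12 arrays. Acad11 had spots marked as outliers on 4 arrays, which left 8 measured, all well above background. No member was saturated.

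The libraries carried their genotype. The Habp2 probe was at 5.45 ± 0.07 (SD, n = 3) and 5.05 ± 0.09 (SD, n = 3) in WT sham and WT BDL mice, and at -5.64 ± 1.89 (SD, n = 3) and -7.04 ± 0.13 (SD, n = 3) in FSAP-/- sham and FSAP-/- BDL mice. FSAP-/- sham replicate 1, at -3.45, was the 1 FSAP-/- array on which it was well above background. That array lay alone on slide 4, while slide 1 held the WT sham mice with WT BDL replicate 1, slide 2 held WT BDL replicates 2 and 3 with FSAP-/- sham replicate 2, and slide 3 held FSAP-/- sham replicate 3 with the FSAP-/- BDL mice. Y-linked Ddx3y and Eif2s3y were well above background on 3 arrays, all FSAP-/- (sham replicate 1, BDL replicates 1 and 2), where Xist was between -7.52 and -6.97, so sex-linked signal was not balanced over the groups. Slides, these 3 arrays and each single array were left out or fitted as alternatives. Calls that turned on single arrays are named beside the gene, and those that turned on slide, on the 3 arrays or on the scaling are named beside the gene or in the last 2 paragraphs.

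After ligation the pathway was lower nearly throughout, in both genotypes. Of the 34 members, 27 fell and 1 rose in WT mice, and 27 fell and 1 rose in FSAP-/- mice. The median log2 change was -1.07 in WT and -0.97 in FSAP-/- mice, beside medians of -0.04 and -0.16 over all genes tested. The background is high in this model: 17.7% of all genes tested fell and 15.1% rose in WT mice, and 22.8% fell and 16.2% rose in FSAP-/- mice. In WT mice 29 members were lower on every BDL array than on every sham array, against 28% of all genes tested, and in FSAP-/- mice 27 were, against 28.7%. The fall ran through every step of the route, as the plot of changes by step shows.

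**Figure D1:**
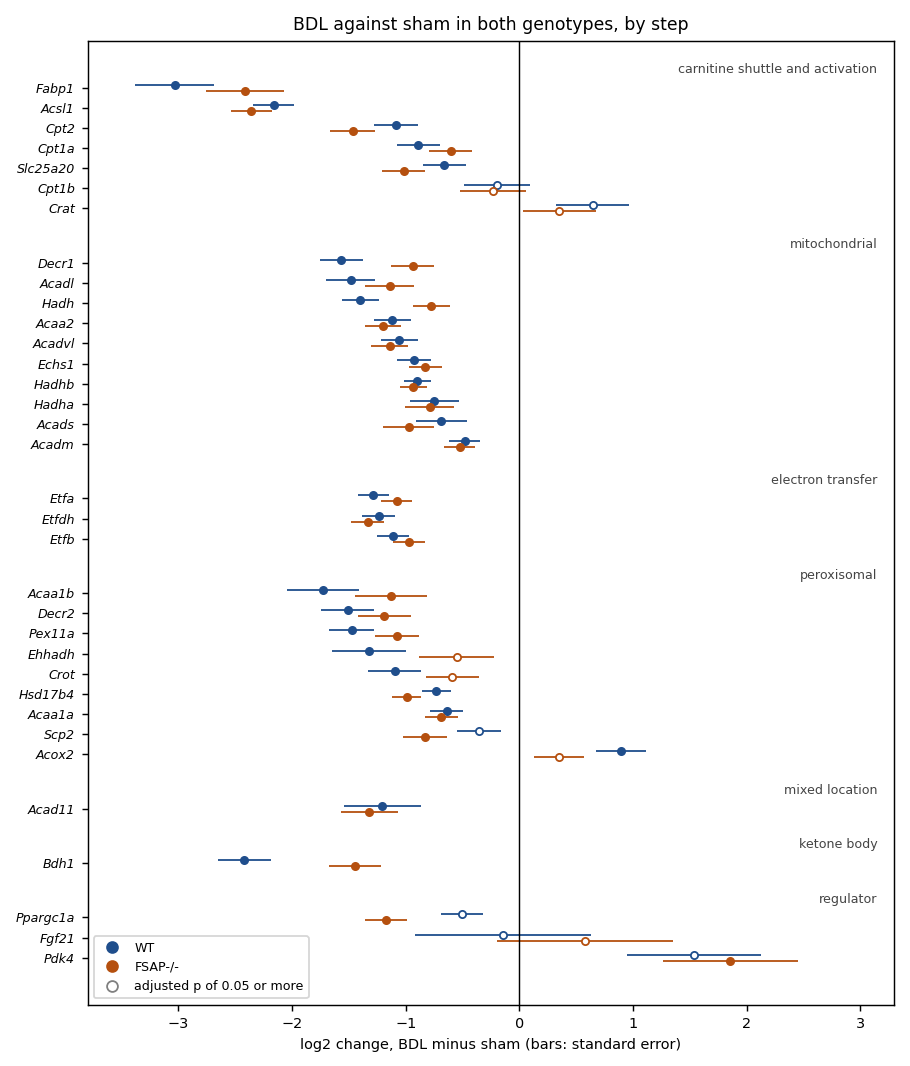
Log2 change after BDL (BDL minus sham, horizontal axis) for each of the 34 members, grouped by step, in WT (blue) and FSAP-/- (orange) mice; points are the limma estimates from 3 mice per group, bars are standard errors, and open points have an adjusted p of 0.05 or more. All 10 mitochondrial and all 3 electron transfer genes lie left of 0 with filled points in both genotypes, while Acox2, Crat and Pdk4 lie to the right.

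The start of 3 of these genes carries letters close to a DR1 element, the site type that PPAR alpha binds with RXR, and they are shown because the members fell together and many are PPAR alpha targets. The search used the hexamer AGGTCA and the element AGGTCANAGGTCA (a pair of hexamers with 1 base, N, between them), on both strands, in windows from 250 bases before to 50 after the gene start from RefSeq (GRCm38.p6). Of the members, 29 had at least 1 window, 32 windows in all. No member window held the exact element, as did 0.0396% of all 32851 windows. With up to 2 differing letters, 5 of the 32 member windows (15.6%) held a match, beside 3.86% of all windows, and 6 of 32 (18.8%) held the hexamer, beside 16.3%; hexamers inside a DR1 match are counted. The matches of Acox2 and Slc25a20 lay after the start and are not shown. The other 3 lay at -67 to -55 (Fabp1, strand opposite to the gene, 1 differing letter), -83 to -71 (Echs1, strand of the gene, 2 differing letters) and -77 to -65 (Etfa, strand opposite to the gene, 2 differing letters) relative to the start. Each is printed 5′ to 3′ on the strand of the gene, with the match in capitals; the Fabp1 stretch is chr6:71199772-71199864 on the plus strand, the Echs1 stretch chr7:140116452-140116544 and the Etfa stretch chr9:55512268-55512360, both on the minus strand.
Fabp1: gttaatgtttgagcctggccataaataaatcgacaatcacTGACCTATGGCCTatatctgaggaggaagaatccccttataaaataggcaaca
Echs1: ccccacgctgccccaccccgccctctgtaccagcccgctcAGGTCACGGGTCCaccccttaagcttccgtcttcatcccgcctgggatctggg
Etfa: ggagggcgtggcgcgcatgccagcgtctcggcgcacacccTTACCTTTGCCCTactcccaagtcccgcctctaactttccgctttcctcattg
A match describes these letters only, and binding was not measured. All 3 genes shown fell in both genotypes. Of the genes with a match after the start, Slc25a20 also fell in both genotypes. Acox2 rose by 0.89 in WT mice and was not called in FSAP-/- mice.

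Activation and carnitine transport held the largest fall of the module in each genotype, that of Fabp1. Fabp1, the abundant fatty acid binding protein of hepatocytes (probe at mm9 chr6:71154906-71154965), read 9.13, 9.20 and 9.03 in WT sham mice and 5.73, 6.27 and 6.25 after BDL. In FSAP-/- mice it read 9.22, 9.16 and 9.22 after sham surgery and 7.74, 6.59 and 6.02 after BDL. The groups did not overlap in either genotype, and FSAP-/- BDL replicate 1 stood above the other BDL mice. The change was -3.03 (SE 0.35) in WT, 8.19-fold lower, and -2.42 (SE 0.35) in FSAP-/- mice, 5.34-fold lower, with limma adjusted p of 0.000124 and 0.000392.

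Acsl1, the main long-chain acyl-CoA synthetase of liver (probe at mm9 chr8:47621232-47621291), lay between 6.13 and 6.20 in WT sham mice and between 3.92 and 4.09 after BDL. The FSAP-/- mice gave 6.58, 6.14 and 6.61 after sham surgery and 4.33, 3.74 and 4.19 after BDL. It was 4.48-fold lower in WT and 5.13-fold lower in FSAP-/- mice, with limma adjusted p of 2.2e-05 and 1.42e-05, the smallest of the module, and its second probe gave -2.35 and -2.17. So the enzyme and the carrier at the entry of the pathway were the members that fell most in FSAP-/- mice.

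Of the carnitine shuttle itself, 3 of the 5 genes fell in both genotypes. Cpt2, the inner membrane transferase, changed by -1.08 (SE 0.20) and -1.47 (SE 0.20), and the carnitine-acylcarnitine carrier Slc25a20 by -0.66 (SE 0.19) and -1.02 (SE 0.19), in WT and FSAP-/- mice. The WT call of Slc25a20 was lost without WT sham replicate 1 or 3 or WT BDL replicate 2 (limma adjusted p 0.0675 to 0.0878). Cpt1a, the outer membrane transferase of liver and the regulated gate, read 4.40, 4.39 and 4.54 in WT sham mice against 3.77, 3.29 and 3.61 after BDL. Its fall of -0.89 (SE 0.19) in WT mice was called, as was -0.60 (SE 0.19) in FSAP-/- mice, with limma adjusted p of 0.00471 and 0.0272. The FSAP-/- call was lost without FSAP-/- sham replicate 2 (adjusted p 0.1), FSAP-/- sham replicate 3 (0.0814), FSAP-/- BDL replicate 1 (0.0567) or FSAP-/- BDL replicate 2 (0.0798), and without the 3 arrays with Y-linked signal (0.0587). Cpt1b, the muscle form, was faint in every group, with means between -4.02 and -3.65, and its changes of -0.20 (SE 0.29) and -0.23 (SE 0.29) were not called; its other probe had the opposite sign, at 0.54 and 0.11. Crat, which makes short-chain carnitine esters, also did not pass, at 0.65 (SE 0.32) and 0.35 (SE 0.32).

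Every one of the 10 mitochondrial spiral enzymes fell, in both genotypes, by between 0.48 and 1.57 on the log2 scale in WT mice. Quantile normalization ended the calls of Acadm and Acads in WT mice and of Acadm (-0.14), Hadh (-0.36), Echs1 (-0.41) and Decr1 (-0.55) in FSAP-/- mice, and scaling to hepatocyte markers, described at the end, ended those of Acadm, Acads, Hadha and Hadhb in WT mice and all 10 in FSAP-/- mice. The first, chain-length specific dehydrogenases did so to different degrees. Acadvl, for very long chains, read 6.51, 6.78 and 6.69 in WT sham mice and 5.80, 5.52 and 5.48 after BDL, a change of -1.06 (SE 0.16), and it changed by -1.14 (SE 0.16) in FSAP-/- mice. Acadl, for long chains, changed by -1.48 (SE 0.22) and -1.14 (SE 0.22); it read 3.20, 3.26 and 3.27 in WT sham mice but 2.28, 3.09 and 3.13 in FSAP-/- sham mice, where replicate 1 was low.

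Acadm, for medium chains, showed the smallest changes of the spiral, -0.48 (SE 0.14) in WT and -0.52 (SE 0.14) in FSAP-/- mice. It lay between 5.50 and 5.57 in WT sham mice and between 5.02 and 5.14 after BDL, so the groups did not overlap although the change was small. Acads, for short chains, changed by -0.69 (SE 0.22) and -0.98 (SE 0.22), with limma adjusted p of 0.0364 and 0.00584. Calls in WT mice were lost for Acadm without WT sham replicate 2 or 3 or WT BDL replicate 2 (adjusted p 0.0624 to 0.0672) and for Acads without WT sham replicate 1 or 2 or WT BDL replicate 2 or 3 (adjusted p 0.0755 to 0.139).

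The hydratase and second dehydrogenase steps fell as well. Echs1, the short-chain enoyl-CoA hydratase, went from 5.35, 5.46 and 5.08 to 4.41, 4.35 and 4.36 in WT mice, a change of -0.92 (SE 0.15), and changed by -0.83 (SE 0.15) in FSAP-/- mice. Hadh, the hydroxyacyl-CoA dehydrogenase, read 5.39, 5.62 and 5.70 in WT sham mice and 4.32, 4.11 and 4.08 after BDL. The FSAP-/- mice gave 4.97, 5.29 and 5.33 after sham surgery and 4.65, 4.36 and 4.25 after BDL, so that both ends were closer together. Its change was -1.40 (SE 0.16) in WT and -0.78 (SE 0.16) in FSAP-/- mice.

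Hadha and Hadhb, the subunits of the trifunctional protein that handles long chains, changed by -0.75 (SE 0.22) and -0.90 (SE 0.12) in WT and by -0.79 (SE 0.22) and -0.93 (SE 0.12) in FSAP-/- mice. The Hadha calls were the less secure, since they were lost without WT sham replicate 1 or 3 or WT BDL replicate 2 or 3 in WT mice (adjusted p 0.0507 to 0.0821) and without FSAP-/- sham replicate 2 or FSAP-/- BDL replicate 3 in FSAP-/- mice (adjusted p 0.0517 and 0.0508). Acaa2, the mitochondrial thiolase, was among the tightest, lying between 7.96 and 8.07 in WT sham and 6.87 and 6.91 in WT BDL mice, a change of -1.12 (SE 0.16), with -1.20 (SE 0.16) in FSAP-/- mice. Decr1, the dienoyl-CoA reductase needed for polyunsaturated chains, gave 6.07, 6.18 and 6.29 in WT sham and 4.63, 4.51 and 4.69 in WT BDL mice, the largest fall of the mitochondrial enzymes at -1.57 (SE 0.19). In FSAP-/- mice it gave 5.96, 5.85 and 5.81, then 5.35, 4.54 and 4.90, a change of -0.94 (SE 0.19), and BDL replicate 1 was again the highest.

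**Figure D2:**
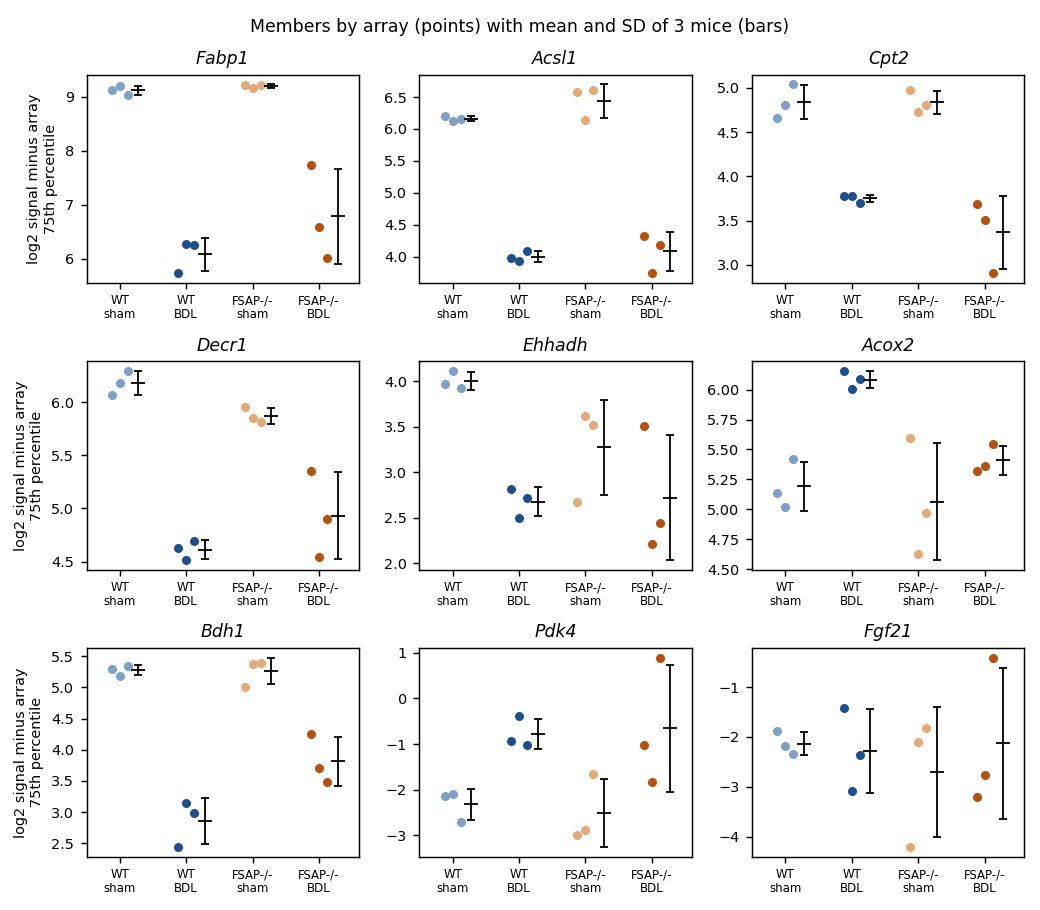
Scaled log2 signal (vertical axis, each panel on its own scale) of 9 members on each of the 12 arrays, by group; points are single mice and the black bars give mean and SD of 3 mice. Fabp1, Acsl1, Cpt2, Decr1 and Bdh1 separate BDL from sham in both genotypes, while Ehhadh, Acox2, Pdk4 and Fgf21 overlap in FSAP-/- mice.

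The electron transfer genes moved as a tight set. Etfa and Etfb form the flavoprotein that takes electrons from the acyl-CoA dehydrogenases, and Etfdh passes them to ubiquinone. In WT mice Etfa read 6.10, 6.0 and 6.10 after sham surgery and 4.71, 4.68 and 4.95 after BDL, and Etfdh went from 5.05, 4.97 and 5.10 to 3.78, 3.84 and 3.79. The 3 genes were between 2.16-fold (Etfb) and 2.44-fold (Etfa) lower in WT and between 1.96-fold (Etfb) and 2.52-fold (Etfdh) lower in FSAP-/- mice, and all 6 limma adjusted p lay between 8.12e-05 (Etfa, WT) and 0.000477 (Etfb, FSAP-/-). No array left out ended any of these calls, while scaling to hepatocyte markers, described at the end, ended the 3 in FSAP-/- mice.

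Peroxisomal members were more mixed than the mitochondrial ones, with 7 of 9 lower and 1 higher in WT mice and 6 lower and none higher in FSAP-/- mice. Acaa1b, a peroxisomal thiolase, showed the largest fall in WT mice, from 5.52, 5.76 and 5.52 to 4.16, 3.84 and 3.62, -1.72 (SE 0.32). In FSAP-/- mice it went from 5.06, 5.72 and 5.18 to 5.0, 3.91 and 3.67, -1.13 (SE 0.32), with BDL replicate 1 close to the sham mice, and this call (limma adjusted p 0.0171) was lost without FSAP-/- sham replicate 2, FSAP-/- BDL replicate 2 or FSAP-/- BDL replicate 3 (adjusted p 0.0578 to 0.0646). Its close copy Acaa1a changed by -0.64 (SE 0.15) and -0.69 (SE 0.15), and since the genes are very alike in sequence, cross-hybridisation was not tested and the pair's values are uncertain.

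Other parts of the peroxisomal spiral fell in both genotypes. Decr2, the peroxisomal dienoyl-CoA reductase, changed by -1.51 (SE 0.23) and -1.19 (SE 0.23). Pex11a, which takes part in peroxisome division, changed by -1.48 (SE 0.19) and -1.08 (SE 0.19), and Hsd17b4, the D-bifunctional protein for branched chains and bile acid precursors, by -0.73 (SE 0.13) and -0.99 (SE 0.13). Hsd17b4 was tight, at 5.49, 5.41 and 5.48 in WT sham and 4.74, 4.75 and 4.69 in WT BDL mice.

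Ehhadh, the L-bifunctional enzyme and a PPAR alpha target (probe at mm9 chr16:21761914-21761973), was the least even of the peroxisomal genes. WT sham mice gave 3.97, 4.11 and 3.93 and WT BDL mice 2.81, 2.50 and 2.72, with no overlap. FSAP-/- sham mice gave 2.68, 3.62 and 3.52 and FSAP-/- BDL mice 3.50, 2.21 and 2.45, so that replicate 1 was the lowest sham mouse and replicate 1 of the BDL group the highest, and the groups overlapped. The change of -1.32 (SE 0.33) was called in WT mice (limma adjusted p 0.0106), and -0.55 (SE 0.33) in FSAP-/- mice was not (adjusted p 0.212). Without FSAP-/- BDL replicate 1 the FSAP-/- change was -0.94 and was called (adjusted p 0.0203), as it was at -1.12 without the 3 arrays with Y-linked signal (0.0047).

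Crot, which makes carnitine esters of shortened chains for export from the peroxisome, changed by -1.10 (SE 0.23) in WT mice and by -0.59 (SE 0.23) in FSAP-/- mice, where it missed the threshold (limma adjusted p 0.0681). Without FSAP-/- sham replicate 1, which read 4.28 beside 5.29 and 4.90, the FSAP-/- change was -0.86 and was called (adjusted p 0.00671). With arrays scaled to their median it was -0.74 and was called (limma adjusted p 0.0126). Scp2, a sterol carrier and thiolase, was the reverse case, with -0.36 (SE 0.19) not called in WT and -0.83 (SE 0.19) called in FSAP-/- mice (adjusted p 0.183 and 0.0064). The other Scp2 probe gave -0.81 and -1.14.

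Acox2, the branched-chain acyl-CoA oxidase that shortens the side chain of bile acid precursors (probe at mm9 chr14:9058141-9058200), was the exception. It read 5.13, 5.02 and 5.42 in WT sham and 6.15, 6.01 and 6.09 in WT BDL mice, 1.86-fold higher, with no overlap (limma adjusted p 0.0103). FSAP-/- sham mice spread from 4.63 to 5.59 and FSAP-/- BDL mice lay between 5.32 and 5.54, inside that range. The change of 0.34 (SE 0.22) there was not called (adjusted p 0.244), and without FSAP-/- sham replicate 1, the highest sham value, it was 0.61 and was called (adjusted p 0.0207).

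Acad11, an acyl-CoA dehydrogenase acting on long chains, fell in both genotypes by 1.21 and 1.32 on the log2 scale. The WT value rests on 1 sham array (5.61) and 2 BDL arrays (4.54 and 4.26), because outlier spots were dropped, and its call was lost without WT BDL replicate 1 (limma adjusted p 0.0532), WT BDL replicate 2 (0.117) or FSAP-/- sham replicate 2 (0.0539). In FSAP-/- mice 3 sham arrays (5.35, 5.68 and 5.80) stood against 2 BDL arrays (4.60 and 3.98).

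Set side by side, the medians of the mitochondrial and peroxisomal steps lay close together, and the ketone body enzyme lay lower. On the 3 WT BDL arrays the median difference from the WT sham mean was -0.89, -1.02 and -1.11 over the mitochondrial genes and -1.04, -0.90 and -1.28 over the peroxisomal genes. On the FSAP-/- BDL arrays it was -0.88, -1.12 and -1.23, and -0.57, -0.95 and -1.02. The mitochondrial median was the lower on all 3 FSAP-/- BDL arrays and on 1 of the 3 WT BDL arrays, and no test was made between steps. Bdh1 stood at -2.84, -2.13 and -2.30, then -1.02, -1.57 and -1.79, below both medians on every BDL array.

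**Figure D3:**
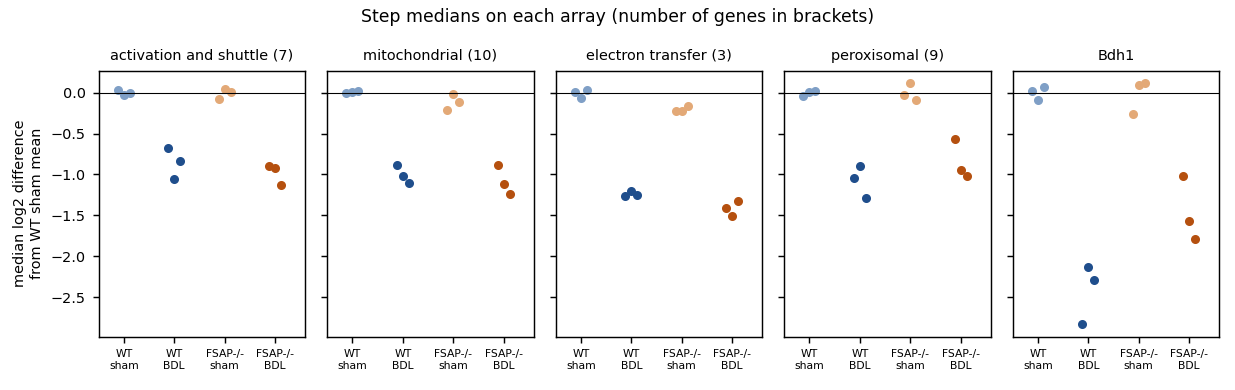
Median log2 difference from the WT sham mean (vertical axis) over the genes of each step on each array, by group, with the single gene Bdh1 at the right; each point is 1 mouse. The BDL points of the 4 multi-gene steps lie between -0.57 and -1.50, and those of Bdh1 in WT mice between -2.84 and -2.13.

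Bdh1, the mitochondrial enzyme that makes beta-hydroxybutyrate (probe at mm9 chr16:31457378-31457437), read 5.30, 5.19 and 5.34 in WT sham and 2.44, 3.14 and 2.98 in WT BDL mice. FSAP-/- mice gave 5.02, 5.37 and 5.40 after sham surgery and 4.26, 3.70 and 3.49 after BDL. Sham mice of both genotypes overlapped, and all FSAP-/- BDL mice were above all WT BDL mice, which lay on other slides. The change was -2.42 (SE 0.23) in WT mice, 5.36-fold lower, and -1.45 (SE 0.23) in FSAP-/- mice, 2.73-fold lower, with limma adjusted p of 4.71e-05 and 0.000788. The other Bdh1 probes gave -2.63 and -2.41 in WT and -1.56 and -1.41 in FSAP-/- mice. The genotypes differed by 0.97 (interaction p 0.0132), which did not pass over all genes (adjusted p 0.236).

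Around Bdh1, 7 further ketone body genes were described, 3 of which fell and 2 rose in WT mice, and 3 of which fell and 1 rose in FSAP-/- mice. Bdh2, a cytosolic dehydrogenase, read 2.68, 2.65 and 2.91 in WT sham and -1.85, -0.78 and -0.46 in WT BDL mice, and 3.11, 2.50 and 2.45 in FSAP-/- sham and 0.31, -0.35 and 0.64 in FSAP-/- BDL mice. The groups did not overlap in either genotype, and the change was -3.78 (SE 0.36) in WT and -2.49 (SE 0.36) in FSAP-/- mice (limma adjusted p 4.48e-05 and 0.000415). Aacs, which returns acetoacetate to lipid synthesis, changed by -3.84 (SE 0.53) and -2.38 (SE 0.53), with limma adjusted p of 0.000388 and 0.00509.

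The use and transport genes were mixed. Oxct1, the transferase by which other tissues burn ketone bodies and which hepatocytes barely express, rose from -1.24, -1.19 and -0.95 to -0.37, 0.08 and 0.54 in WT mice and from -1.21, -1.24 and -0.93 to 0.53, 0.60 and 1.13 in FSAP-/- mice, 2.31-fold and 3.68-fold higher (limma adjusted p 0.00307 and 0.000201). With slide as a fixed block the WT change of Oxct1 was 0.76 and was not called (adjusted p 0.129). Among the monocarboxylate carriers, Slc16a6 rose by 1.26 (SE 0.34) in WT mice and changed by 0.47 (SE 0.34) in FSAP-/- mice, which was not called. The WT call was lost without WT sham replicate 2 (adjusted p 0.0628) or WT BDL replicate 2 (0.0623), and the mean of its probes gave 0.74. Slc16a7 fell by 1.36 on the log2 scale in WT mice, but the mean of its probes gave -1.04, which was not called (limma adjusted p 0.0734). Its change of -0.74 (SE 0.33) in FSAP-/- mice was not called, but was -1.20 and called without FSAP-/- sham replicate 1 (adjusted p 0.00172). With arrays scaled to their median, the FSAP-/- change of Slc16a7 was -0.90 and was called (limma adjusted p 0.0225). Slc16a1 was not called in either genotype, at -0.09 (SE 0.15) and -0.22 (SE 0.15). Acat1, the mitochondrial acetoacetyl-CoA thiolase, changed by -0.74 (SE 0.32) in WT mice, not called, and by -1.04 (SE 0.32) in FSAP-/- mice, called at a limma adjusted p of 0.0262. Without WT BDL replicate 1 the WT change was -1.04 and was called (0.0277), and the FSAP-/- call was lost without FSAP-/- sham replicate 2 or 3 or FSAP-/- BDL replicate 1 or 2 (0.0513 to 0.0935).

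**Figure D4:**
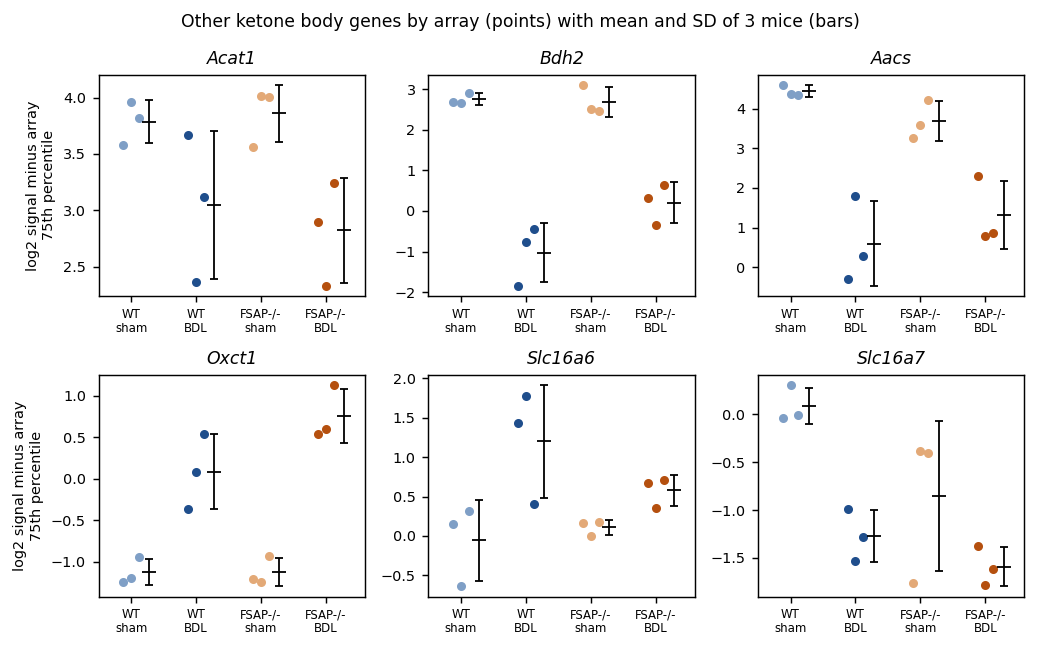
Scaled log2 signal (vertical axis, each panel on its own scale) of 6 ketone body genes outside the module on each array, by group; points are single mice and black bars give mean and SD of 3 mice. Bdh2 and Aacs drop after BDL in both genotypes, and Oxct1 rises.

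The 3 regulators did not share a direction. Ppargc1a, the coactivator that turns on oxidative genes in fasting, changed by -0.51 (SE 0.19) in WT mice, not called (limma adjusted p 0.0586), and by -1.17 (SE 0.19) in FSAP-/- mice, called (adjusted p 0.000724). It read -0.28, -0.41 and -0.24 in WT BDL and -1.20, -0.99 and -0.65 in FSAP-/- BDL mice, which did not overlap. Its other probe gave -0.08 and -0.33, smaller in both genotypes. The WT call turned on single arrays, being made without WT sham replicate 1 (-0.66, adjusted p 0.0335) and without FSAP-/- BDL replicate 3 (adjusted p 0.0392). It was also made with arrays scaled to their median (-0.625, limma adjusted p 0.0266).

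Pdk4, a kinase that shuts off pyruvate dehydrogenase when fat is burned (probe at mm9 chr6:5433441-5433500), went up while the oxidation genes fell. WT sham mice gave -2.14, -2.10 and -2.71 and WT BDL mice -0.94, -0.39 and -1.01, with no overlap, and the change of 1.54 (SE 0.59) was not called (limma adjusted p 0.0698). FSAP-/- sham mice gave -3.00, -2.88 and -1.65 and FSAP-/- BDL mice -1.03, -1.82 and 0.89, which overlapped, and 1.86 (SE 0.59) was called (adjusted p 0.0294). The larger spread of the FSAP-/- mice enters the shared SE. Without FSAP-/- BDL replicate 3 the FSAP-/- change was 1.08 and was not called (adjusted p 0.075), while the WT change was then called (adjusted p 0.011). The FSAP-/- call was also lost without FSAP-/- sham replicate 1 (adjusted p 0.0891) or replicate 2 (0.0872). The WT call was also made without FSAP-/- BDL replicate 2 (0.0393).

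Fgf21, the liver hormone of fasting and a PPAR alpha target, showed no called change, at -0.15 (SE 0.77) in WT and 0.58 (SE 0.77) in FSAP-/- mice. Its spread was the widest of the module. FSAP-/- sham mice read -4.21, -2.09 and -1.83 and FSAP-/- BDL mice -3.21, -2.77 and -0.41, where replicate 1 was lowest and replicate 3 highest, while WT sham mice lay between -2.33 and -1.89.

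The remaining lists of the pathway are given by their counts, to be read beside the shares of all genes tested given above. Of 19 further mitochondrial acyl-CoA genes, 16 fell in WT and 15 in FSAP-/- mice and none rose, with medians of -1.07 and -1.10. The 4 with the largest changes were Acsm1 and Acsm3, which activate medium-chain acids, Acadsb, a dehydrogenase of branched short chains, and Slc25a42, a coenzyme A carrier; Acsm1 changed by -1.56 (SE 0.21) and -1.71 (SE 0.21). Of 33 further peroxisomal genes, 23 fell and 1 rose in WT and 21 fell and none rose in FSAP-/- mice, with medians of -0.94 and -0.76. Nudt7, a hydrolase of coenzyme A, changed by -2.50 (SE 0.45) and -3.28 (SE 0.45), catalase (Cat) by -2.13 (SE 0.27) and -1.80 (SE 0.27), and Hacl1, the lyase of alpha-oxidation, by -1.79 (SE 0.26) and -2.02 (SE 0.26). Acot4, a thioesterase, changed by -2.24 (SE 0.53), called in WT mice, and by -1.11 (SE 0.53), not called in FSAP-/- mice, where sham replicate 1 read -0.62 beside 1.92 and 1.86 and without which the change was -1.94 and was called (limma adjusted p 9.38e-05).

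Among upstream regulators Ppara, the receptor gene itself, fell furthest. Of 16 listed PPAR regulators, 5 fell and 1 rose in WT mice and 11 fell and 1 rose in FSAP-/- mice. Ppara read 4.80, 5.05 and 5.24 in WT sham and 1.77, 1.62 and 2.10 in WT BDL mice, 9.2-fold lower, and was 4.35-fold lower in FSAP-/- mice (limma adjusted p 1.28e-05 and 0.000108). Ppargc1b, a second coactivator, changed by -1.45 (SE 0.38) and -1.37 (SE 0.38), and Sirt3, the mitochondrial deacetylase, by -1.45 (SE 0.16) and -1.43 (SE 0.16). The Ppargc1b call in FSAP-/- mice was lost without FSAP-/- sham replicate 1 (limma adjusted p 0.0505) or FSAP-/- BDL replicate 1 (0.0536), and its change was -0.67 without the 3 arrays with Y-linked signal. The 1 gene that rose in both was Fgfr1, at 1.69 (SE 0.38) and 1.91 (SE 0.38). With the mean of its probes, both values moved by over 1.5 times.

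Of 20 PPAR alpha targets outside beta-oxidation, 10 were lower and 4 higher in WT mice. In FSAP-/- mice 7 were lower and 4 higher. Over all genes tested, 17.7% fell and 15.1% rose in WT mice, and 22.8% fell and 16.2% rose in FSAP-/- mice. The omega-hydroxylase Cyp4a10 read 4.46, 4.54 and 4.25 in WT sham and -0.01, -2.0 and -0.72 in WT BDL mice, 40-fold lower, but 0.78, 4.60 and 3.44 in FSAP-/- sham mice and 7.48-fold lower there. Its close copies Cyp4a31 and Cyp4a32, which the probes may not tell apart, changed by -5.12 (SE 0.91) and -5.19 (SE 0.84) in WT mice. In FSAP-/- mice the calls of all 3 were lost without FSAP-/- sham replicate 2 or 3 or FSAP-/- BDL replicate 2 (limma adjusted p 0.0555 to 0.12), and that of Cyp4a10 also without FSAP-/- BDL replicate 1 (0.0513). Acot3, a peroxisomal thioesterase, changed by -6.19 (SE 1.59) in WT mice and by -2.46 (SE 1.59), not called, in FSAP-/- mice, where sham replicate 1 read -4.23 beside 3.42 and 3.09; without that array the change was -4.95 and was called (limma adjusted p 0.000196). The same array was thus the lowest of its group for Acot3, Acot4, Cyp4a10, Slc16a7, Ehhadh, Acadl and Fgf21. It was also the lowest for others, such as Cpt1a, Crot and Bdh1. For still others, such as Scp2, Acox2, Decr1 and Cpt2, it was the highest.

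Of the 3 genes of the malonyl-CoA gate, which holds back Cpt1a, 3 fell in WT and 2 in FSAP-/- mice. Acacb, the acetyl-CoA carboxylase at the mitochondrion, changed by -3.24 (SE 0.42) in WT and -1.90 (SE 0.42) in FSAP-/- mice, and Mlycd, the decarboxylase that removes malonyl-CoA, by -0.96 (SE 0.15) and -1.05 (SE 0.15). Acaca, the cytosolic carboxylase, changed by -0.57 (SE 0.16) in WT mice, called, and by -0.12 (SE 0.16) in FSAP-/- mice, not called. The WT call of Acaca was lost without WT sham replicate 1 or 2 or WT BDL replicate 1 (limma adjusted p 0.0513 to 0.0578). When scaled to hepatocyte markers, the calls of Mlycd and Acaca in WT mice (limma adjusted p 0.0535 and 0.384) and of Acacb and Mlycd in FSAP-/- mice (0.063 and 0.2) were lost.

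No member passed the test between genotypes. No slide held both genotypes after the same surgery, so these comparisons also set slide against slide. After sham surgery limma called 0 of the 34 (2 at an unadjusted p under 0.05, lowest adjusted p 0.603), beside 0.0154% of all genes tested, and the median difference, FSAP-/- minus WT, was -0.13. The 2 were Hadh at -0.38 and Ehhadh at -0.73, and 7.88% of all genes tested had an unadjusted p under 0.05. After BDL 0 of 34 were called (4 at an unadjusted p under 0.05, lowest adjusted p 0.122), beside 0.215%, with a median of -0.06. Those 4 were Bdh1 at 0.96 and Crot at 0.56, higher in FSAP-/- mice, and Acox2 at -0.68 and Ppargc1a at -0.64, lower, in a comparison where 12.9% of all genes tested had an unadjusted p under 0.05.

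No member passed the test of the interaction, which asks whether the response to BDL differed between genotypes, with 0 of 34 called by limma (4 at an unadjusted p under 0.05, lowest adjusted p 0.236) beside 0.0102% of all genes tested. The 4 were Bdh1 (0.97), Hadh (0.62) and Decr1 (0.63), whose falls were smaller in FSAP-/- mice, and Ppargc1a (-0.67), whose fall was larger, beside 13.7% of all genes tested with an unadjusted p under 0.05. None of these 3 counts of members at an unadjusted p under 0.05 stands above its share over all genes. Genes called in 1 genotype only, such as Ehhadh, Crot, Acox2, Scp2 and Pdk4, are therefore not shown to respond differently. The BDL comparisons in the 2 genotypes share no mice. A p above the threshold does not show that the genotypes act alike.

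Markers of several cell types also changed after ligation, but cell makeup itself was not measured. In whole tissue, fewer hepatocytes and less RNA per hepatocyte cannot be told apart. Of 6 cholangiocyte markers, 6 rose in both genotypes, with median changes of 3.45 in WT and 3.78 in FSAP-/- mice. The log2 of their summed signal went from between 0.38 and 0.66 in WT sham to between 3.72 and 4.03 in WT BDL mice. In FSAP-/- mice it went from between 0.33 and 0.94 to between 3.52 and 5.45. Such a sum follows the brightest markers. After BDL it was mostly Spp1, at 2.93 to 3.73 in WT and 3.03 to 5.30 in FSAP-/- mice. Of 6 macrophage markers 5 rose in WT and 6 in FSAP-/- mice, with summed log2 signals of 4.65 to 5.22 in WT sham, 5.59 to 6.17 in WT BDL, 4.19 to 4.87 in FSAP-/- sham and 6.06 to 6.47 in FSAP-/- BDL mice. Of 6 stellate cell and myofibroblast markers 2 and 5 rose, with 1.46 to 1.67, 2.39 to 4.23, 1.32 to 1.51 and 4.06 to 5.71 in the same order. Of the 7 hepatocyte markers on the array under their listed names, 1 fell in WT (Ttr) and 3 in FSAP-/- mice (Alb, Ttr and Apob), with medians of -0.30 and -0.61, and Alb changed by -0.46 (SE 0.22) and -0.65 (SE 0.22). The log2 of their summed signal lay between 11.6 and 11.8 in WT sham, 11.2 and 12.1 in WT BDL, 11.7 and 11.9 in FSAP-/- sham and 11.2 and 11.5 in FSAP-/- BDL mice. Of 5 adipocyte markers, Adipoq, Plin1 and Lep were not well above background on any of the 12 arrays. Retn was so on 2 WT sham arrays, 1 FSAP-/- sham array and no BDL array. It changed by -2.13 (SE 0.77) in WT and 0.02 (SE 0.77) in FSAP-/- mice, neither called. Cidea, a lipid droplet protein, was not well above background in sham mice. It was at least 28.1-fold and 20.9-fold higher after BDL in WT and FSAP-/- mice. Such a bound sets the bright group against the lowest signal that counts as well above background. Of 5 striated muscle markers, Myh4 and Mb were not well above background on any of the 12 arrays. Ckm was so on 1 FSAP-/- BDL array only, and Tnnt3 on 1 WT BDL array only. Acta1 was at least 2.73-fold higher in FSAP-/- BDL than in FSAP-/- sham mice, and its WT change of 1.33 (SE 0.52) was not called. The part of cell makeup in the fall of the members was not tested.

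Set against the hepatocyte markers, fewer members were called. When each array was set to the mean of the 7 hepatocyte markers in place of its 75th percentile, an alternative added after the values were seen, 18 members fell and 1 rose in WT mice, with a median of -0.89. The 9 calls lost in WT mice were those of Acaa1a, Acad11, Acadm, Acads, Cpt1a, Hadha, Hadhb, Hsd17b4 and Slc25a20. In FSAP-/- mice 3 fell (Acsl1, Fabp1 and Cpt2) and 3 rose (Pdk4, Acox2 and Crat), with a median of -0.37. Acadm turned there from -0.52 to 0.08. Of the 19531 genes tested, 759 fell and 5375 rose in FSAP-/- mice with that scaling. That scaling moved the median of all genes to 0.15 in WT and 0.44 in FSAP-/- mice, so changes there are read against those medians. Of the other named genes not yet given, Acat1 (-0.44), Ppargc1b (-0.77), Cyp4a10, Cyp4a31 and Cyp4a32 lost their calls in FSAP-/- mice, where Slc16a6 was called. Quantile normalization also lowered the counts, to 23 lower and 1 higher in WT and 19 lower and 2 higher in FSAP-/- mice, and moved the values of 4 called members in WT and 16 in FSAP-/- mice by over 1.5 times. It ended the calls of Acaa1a, Acad11, Acadm and Acads in WT mice and of Acaa1a (-0.18), Acaa1b, Acadm, Cpt1a (-0.21), Decr1, Echs1, Hadh and Scp2 in FSAP-/- mice, where Acox2 was called at 0.73. Of the other named genes, it ended the calls of Acaca in WT and Acat1 in FSAP-/- mice, and Slc16a7 was called in FSAP-/- mice.

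Slide and group overlapped in part within each genotype, and no slide held both genotypes after the same surgery. With slide as a fixed block 17 members fell and 1 rose in WT mice and 17 fell and none rose in FSAP-/- mice. The calls lost were those of Cpt1a, Cpt2, Slc25a20, Acadm, Acads, Hadha, Ehhadh, Acaa1a, Acaa1b and Acad11 in WT mice (limma adjusted p 0.0558 to 0.346). Those lost in FSAP-/- mice were Cpt1a, Acadm, Acads, Hadha, Decr1, Acaa1a, Acaa1b, Pex11a, Scp2, Acad11 and Pdk4 (limma adjusted p 0.052 to 0.454). Of the other named genes, Slc16a6, Acsm3, Slc25a42 and Ppargc1b, beside Oxct1, lost their calls in WT mice and Acat1, Cyp4a32 and Ppargc1b in FSAP-/- mice, where Slc16a7, Acot3 and Acot4 were called. Within slide 1, WT BDL replicate 1 against the WT sham mice, 29 of 34 members were lower, with a median of -0.95. Within slide 3, the FSAP-/- BDL mice against FSAP-/- sham replicate 3, 31 of 34 were lower, with a median of -0.91. These within-slide differences equal the fixed block estimates and are not a separate check. The fixed block estimates thus rest on 1 BDL mouse in WT and 1 sham mouse in FSAP-/- mice. Of the 28 called values in each genotype, 1 moved by over 1.5 times: Hadha in WT mice, which was -0.46 within slide 1, and Pdk4 in FSAP-/- mice, which was 0.9994 within slide 3. Without the 3 arrays with Y-linked signal, which leaves 1 FSAP-/- BDL mouse assumed to vary like the others, 28 members fell and 2 rose in each genotype. Scp2 (-0.36, limma adjusted p 0.043) and Pdk4 (0.0105) were then called in WT mice, and Acox2 (0.74, adjusted p 0.041), Crot (-0.86, 0.0291) and Ehhadh in FSAP-/- mice, where the call of Cpt1a was lost. Of the other named genes, Slc16a7, Acot3 and Acot4 were called and Acat1 and Ppargc1b lost their calls in FSAP-/- mice. In these mice Pdk4 was at 3.16, Acaa1b at -1.77 and Hadha at -1.30.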

How the data were processed

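The 34 members, the further gene lists and the alternatives were chosen with earlier results of these data known. Per the file headers, the arrays were read with Agilent Feature Extraction 10.5.1.1, which wrote a processed intensity for each spot with spatial and multiplicative detrending and surrogate values for dim spots switched on, and mm9 probe positions. Per the labels, 100 ng of RNA with an integrity number of at least 7.2 was labelled with Cy3. The file of FSAP-/- sham replicate 1 holds accessions in its gene name column for most probes (9.26% of names equal those of the other arrays) and was joined by probe name. RefSeq accessions were matched for 26412 of 33063 probes, and 3093 names were updated; the names of the members did not change.

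Intensities of spots without outlier marks were averaged per probe on the log2 scale, minus log2 of the array's 75th percentile, which lay between 475 and 1202. Genes well above background on at least 3 arrays were tested with limma 3.58.1 (R 4.3.3): 4 group means, 12 arrays, 8 residual and 2.69 prior degrees of freedom, Benjamini-Hochberg adjustment. The number of arrays limits the precision. The authors' deposited log2 table was made by a method that the sources used here do not give, and served as an alternative. It correlated with the scanner log2 intensities at 0.99892 to 0.99991, with column medians of 5.655 to 5.6645 and the same direction. Its correlation with the quantile-normalized scanner values was 0.99998 or 0.99999 on each array, so it is nearly the same alternative as quantile normalization. The named genes were the 34 members, the ketone body list, Habp2, and from each other list up to 4 called genes with the largest changes. Part of the ketone body list is not reported here. The script was tested on simulated data with the spread of these arrays. Of 100 genes set to a log2 change of -1, limma called 43% in WT and 47% in FSAP-/- mice. Of 100 set to -2, it called 72% and 75%. Far fewer genes were changed there than were called in these data, so these shares do not carry over directly. Protein sequences were not used here.

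Alternatives were normexp background correction (offset 50), median and quantile scaling, the filter, the mean of probes, the compared groups alone, limma with trend and robust settings, slide, replicate number, and leaving out arrays.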

Additional observations from a re-analysis of the deposited data

How the results depend on the processing

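The counts of called members were recomputed under 26 alternatives. For BDL in WT mice (28 called) the count was 18 with slide as a fixed block, and for BDL in FSAP-/- mice (28 called) it was 17 with slide as a fixed block and 6 when scaled to the hepatocyte markers, the alternative added after seeing the data. All other alternatives kept both counts within 1.5 times. Leaving out 1 array each gave 23 to 30 in WT and 24 to 29 in FSAP-/- mice, and 0 in each leave-one-out fit of the genotype differences and the interaction. Acadm in FSAP-/- mice turned to 0.0757 when scaled to the hepatocyte markers.

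Replicate numbers were shared between groups, and the correlation of deviations between same-numbered mice ran from -0.202 to 0.191, so the numbers were not taken as pairs. With the replicate block 27 members were called in WT and 28 in FSAP-/- mice, and 0 for each genotype difference and the interaction. Of the 28 called in each genotype, 18 in WT and 15 in FSAP-/- mice passed in every alternative other than the hepatocyte scaling, and no called member changed sign in those. The authors' deposited log2 values gave 24 in WT and 21 in FSAP-/- mice. Median scaling moved the median of all genes from -0.04 to -0.15 in WT and from -0.16 to -0.31 in FSAP-/- mice. Over all genes tested, the fixed slide block called 3304 in WT and 4190 in FSAP-/- mice, against 6415 and 7624, and the hepatocyte scaling called 4018 in WT mice. For FSAP-/- against WT after BDL the count was 42 and ranged from 2 to 135, after sham it was 3 and ranged from 0 to 3, and for the interaction it was 2 and ranged from 0 to 264, the last without the arrays with Y-linked signal. "Only the groups compared" cannot be fitted for the interaction, which needs all 4 groups.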
